A study of Arabidopsis thaliana with 22 samples.

Results

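Polysomal RNA (PL) from aerial parts of *Arabidopsis thaliana* seedlings was compared between the *pab2 pab8* double mutant and wild type (WT), with 4 arrays of each genotype. These were all 8 PL arrays among the 22 arrays of the series, and the comparison ran over all 22746 probe sets of the Affymetrix ATH1 array. The mutant carries T-DNA insertions in *PAB2* and *PAB8*, and both genotypes are in the Columbia-0 background. Seedlings were 10 to 12 days old and grew at 22°C in continuous light on Murashige and Skoog agar with 1% sucrose, the mutant alongside its WT, and the replicates were grown at different times. Homogenates were separated on sucrose gradients into mRNA with polysomes and a non-polysomal fraction (NP, free and monosomal mRNA), and total RNA was taken in parallel for replicates 1 to 3. As a model the mutant is limited in that the related gene *PAB4* is intact and that the plants are mildly dwarfed. PL is a share of bulk aerial tissue, so fewer cells of a type and less of an mRNA per cell cannot be told apart.

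Poly(A) binding proteins coat the 3′ tail of mRNAs and contact initiation factors at the 5′ cap, and so take part in ribosome recruitment and in mRNA stability. *PAB2*, *PAB4* and *PAB8* are the broadly expressed members of the family in *Arabidopsis*. An mRNA that carries several ribosomes sediments with polysomes, so its PL signal reflects both how much of the mRNA there is and which share of it is being translated. Signals are log2 values normalized by the authors, and each change is the mean of the mutant minus the mean of WT. No detection calls or background levels were used, and a change can be understated where the lower genotype is near the dim end of the array, the dimmest 25% of probe sets lying under 3.33 in WT PL.

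The 8 PL arrays had median log2 signals between 4.89 and 4.99. Replicate numbers set arrays apart more than genotype did. The first principal component, with 50.9% of the PL variance, had replicates 2 and 3 of both genotypes on one side and replicates 1 and 4 on the other, and the second, with 18.5%, separated the genotypes. The mutant was grown alongside WT and the replicates at different times, so a shared number was taken to mark plants grown together, and each result is also given with the replicate number as a block wherever that changed a call or a count. For the tissue check, the summed signal of 9 light-harvesting, photosystem and Rubisco probe sets lay at 15.41 to 15.54 in *pab2 pab8* and 15.61 to 15.78 in WT on the log2 scale, so the genotypes did not overlap. Sums over 4 root probe sets were 9.59 to 10.75 in *pab2 pab8* and 10.12 to 11.08 in WT, and those over 2 seed coat probe sets 4.06 to 4.21 and, in WT, 4.17 to 4.22. The part of such tissue differences in the results was not tested.

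Both mutated genes had much lower PL signals in the mutant. *PAB2* had log2 signals of 4.54, 5.11, 5.09 and 4.34 in *pab2 pab8* replicates 1 to 4, against 9.68, 10.09, 10.03 and 9.80 in WT. Every mutant array lay far below every WT array, and the PL change was -5.13 ± 0.19 (SE, FDR = 7.88e-06). *PAB8* gave 4.00, 4.47, 4.46 and 4.35 in the mutant and 7.98, 7.81, 7.66 and 7.69 in WT. The groups again lay well apart, with a change of -3.47 ± 0.13 (FDR = 7.88e-06). Where the probes lie relative to the insertions was not examined here. The intact *PAB4* had 8.59, 8.23, 8.36 and 9.26 in *pab2 pab8* against 9.21, 8.83, 8.57 and 8.89 in WT. These ranges overlapped, and the PL change of -0.27 ± 0.23 did not pass the test (FDR = 0.953, or 0.415 with the block), while the *PAB4* change was -1.46 in NP and -0.53 in total RNA.

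Across the array few mRNAs differed by the criterion of FDR < 0.05 and at least 2-fold. It was met by 16 probe sets higher in *pab2 pab8* (0.0703% of those tested) and 15 lower (0.0659%), *PAB2* and *PAB8* included. With the replicate block 72 were higher (0.317%) and 49 lower (0.215%), and all 31 calls made without the block were among them. Members of gene lists are counted below at FDR < 0.05 alone, which 24 probe sets passed as higher (0.106%) and 23 as lower (0.101%), or 530 (2.33%) and 488 (2.15%) with the block. An unadjusted p < 0.05 was reached at 1728 probe sets (7.6%). The signals of the genotypes did not overlap at 550 probe sets with the mutant above (2.42%) and 590 with the mutant below (2.59%). PL changes centred on a median of 0.003 with an SD of 0.24, and the 1st and 99th percentiles were -0.62 and 0.62. The calls depended on single arrays. Without mutant replicate 1, 2, 3 or 4 the higher calls numbered 1, 5, 1 and 35, and without WT replicate 1, 2, 3 or 4 they numbered 7, 1, 1 and 2. The lower calls numbered 4, 4, 3 and 10 without those mutant arrays and 14, 3, 3 and 3 without those WT arrays. With the block, leaving out both arrays of a replicate number, a setting added after the data were seen, gave 54 to 78 higher and 43 to 65 lower calls. *PAB2*, *PAB8*, *LEA7* and AT1G67865 passed FDR < 0.05 without each array in turn, and each of the other named genes called without the block, *scpl35* apart, which was not examined so, missed it without at least 1 array.

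Most of the largest increases were mRNAs of seed maturation. Seeds late in development fill with storage proteins and oil and, under abscisic acid (ABA), accumulate protectants that let the embryo dry, and these programmes are normally shut down in seedlings. Of the 16 higher calls 13 had a gene name, and 9 belonged to the seed lists described next, which hold 64 probe sets. With the block the seed lists held 24 of the 72 higher calls and 0 of the 49 lower calls by limma, where 20 of the lower calls had no single gene name. Several of these probe sets, *PER1*, *CYS2*, *TSPO*, *CRA1*, *CRU3*, *OLEO2*, *LEA7* and *ECP63* among them, could be named only through the study's table of genes that changed in these samples. The counts of the seed lists are therefore not independent evidence of a direction, and the counts over array annotation alone are given beside them.

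*PER1*, a peroxiredoxin of seeds, had log2 signals of 7.98, 9.41, 8.43 and 6.88 in *pab2 pab8* and 4.42, 4.50, 4.33 and 4.3 in WT. The WT arrays lay within a narrow band and every mutant array was above it, replicate 2 highest and replicate 4 lowest. The change was 3.79 ± 0.43 (FDR = 0.0216, 0.000274 with the block), and FDR ranged from 0.00178 to 0.0958 when 1 array was left out. *CYS2*, a cystatin that inhibits cysteine proteases, gave 8.12, 8.64, 8.44 and 7.02 in the mutant against 5.90, 5.59, 5.63 and 5.54 in WT. The mutant was again above WT on each array, by 2.39 ± 0.31 on average (FDR = 0.0299, 0.000748 with the block). *TSPO*, an ABA-inducible membrane protein, had 7.56, 7.51, 6.79 and 6.18 in *pab2 pab8* against 5.30, 4.81, 4.97 and 4.83 in WT. Its groups did not overlap and the change was 2.03 ± 0.29 (FDR = 0.0397, 0.000748 with the block).

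Of the 9 measured ABA-responsive and seed maturation probe sets (21 loci listed), 3 rose and 0 fell, and with the block 5 rose and 1 fell. Their median change was 2.00, beside 0.003 over all probe sets. The additional blocked calls were *LTI65*, an ABA-responsive dehydration gene (2.00, FDR = 0.0864 without and 0.00414 with the block), and AT1G04560, an AWPM-19-like membrane protein (2.08, 0.0935 without and 0.000465 with the block). The member that fell was *TIP3;1*, a water channel of seed vacuoles. It had 12.19, 12.24, 12.26 and 11.93 in *pab2 pab8* and 12.74, 12.85, 12.74 and 12.94 in WT. All mutant arrays were below all WT arrays, with pair differences between -1.01 and -0.49 and a change of -0.66 ± 0.10 (FDR = 0.0568 without and 0.00989 with the block). The WT level of *TIP3;1* was 12.82 in PL but 6.02 in total RNA, so this fall may show little about that mRNA. Over the 3 members named by array annotation alone the median was 0.20, with 1 rise under the block.

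Late embryogenesis abundant (LEA) proteins are hydrophilic proteins that protect drying cells. *LEA7* had 7.71, 8.11, 7.91 and 7.14 in *pab2 pab8* and 5.07, 4.1, 3.84 and 4.06 in WT. The ranges were more than 2 log2 units apart. The change was 3.45 ± 0.29, which passed the test with the block (FDR = 6.73e-05) and without it (FDR = 0.00452), and also without any one array (highest FDR = 0.0394). AT3G53040, of the LEA family, gave 6.11, 6.77, 6.21 and 4.99 in the mutant and 4.05, 3.12, 3.08 and 3.29 in WT. Its groups did not overlap and it rose by 2.63 ± 0.36 (FDR = 0.0384, 0.00139 with the block). *AtLEA4-1* had 5.53, 6.60, 5.84 and 5.14 in *pab2 pab8* against 4.08, 3.52, 3.56 and 3.70 in WT. It rose by 2.06 ± 0.28 with no overlap (FDR = 0.0384, 0.00224 with the block).

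The largest increase on the array belonged to *ECP63*, another LEA gene, and it showed how much the replicate number mattered. It had 7.92, 10.12, 9.08 and 6.40 in *pab2 pab8* and 3.45, 4.74, 4.44 and 3.12 in WT. In both genotypes replicates 2 and 3 were high and replicate 4 was lowest, while the pairs differed by 4.46, 5.38, 4.65 and 3.28. The change of 4.44 gave FDR = 0.0612 without the block (SE 0.73) and 6.13e-05 with it (SE 0.26). *M17* had 5.52, 6.70, 5.94 and 3.88 in the mutant and 2.59, 2.47, 2.46 and 2.23 in WT, without overlap (3.07, FDR = 0.0612 without and 0.00143 with the block). *LEA18* was similar, with 6.75, 7.68, 6.87 and 5.06 in the mutant and 3.68, 3.95, 3.63 and 2.93 in WT (3.04, FDR = 0.0612 without and 0.00012 with the block). These 3 genes, and the others given only as blocked calls, were named after their values were seen.

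Not all LEA probe sets moved. Of 35 probe sets from 45 loci, 3 rose and 0 fell by limma (17 had an unadjusted p < 0.05), and with the block 13 rose and 1 fell. The median change was 0.21, and the mutant lay wholly above WT at 13 and wholly below it at 1. The member that fell with the block was AT1G54410, in the dehydrin part of the list, at 10.56, 11.64, 11.57 and 10.90 in *pab2 pab8* against 11.93, 12.44, 12.24 and 11.88 in WT (-0.95 ± 0.25, FDR = 0.247 without and 0.00334 with the block). Among the 30 probe sets named by array annotation alone, 2 rose and, with the block, 11 rose and 1 fell. Leaving out replicate 3 reduced the blocked rises of the whole list to 8. Some LEA genes read far higher in WT PL than in WT total RNA, *M10* at 10.56 and 3.61 and AT3G15670 at 9.14 and 3.93. The PL changes of such probe sets may show little about those mRNAs.

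**Figure D1:**
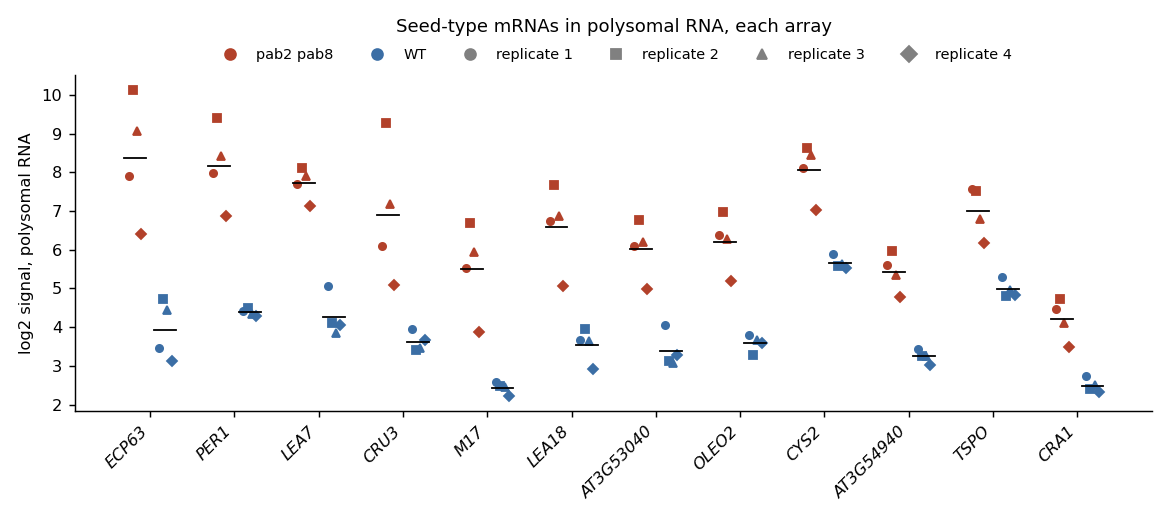
Log2 signal in polysomal RNA (y axis) for 12 seed-type mRNAs (x axis), each array of *pab2 pab8* (red, left) and WT (blue, right) shown by the shape of its replicate number, with a bar at the mean of 4. All mutant points lie above all WT points of the same mRNA, and for *ECP63* they run between 6.40 and 10.12 against 3.12 and 4.74 in WT.

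Storage protein and oil body mRNAs rose in part. The cruciferin *CRA1* had 4.47, 4.74, 4.11 and 3.49 in *pab2 pab8* and 2.73, 2.41, 2.50 and 2.32 in WT. The groups did not overlap and the change was 1.71 ± 0.24 (FDR = 0.0386, 0.000803 with the block). The cruciferin *CRU3* gave 6.11, 9.27, 7.18 and 5.08 in the mutant against 3.94, 3.42, 3.45 and 3.67 in WT. Mutant replicate 2 was more than 2 log2 units above the other mutant arrays, and the change of 3.29 ± 0.74 missed the threshold without the block (FDR = 0.163) and passed with it (FDR = 0.0122), though not in each fit that left out a replicate number (highest FDR = 0.0691). AT2G28490, of the cupin family to which seed globulins belong, had 5.38, 6.98, 5.49 and 4.26 in *pab2 pab8* and 3.17, 2.88, 3.06 and 3.11 in WT, a difference without overlap (2.47, FDR = 0.0938 without and 0.00592 with the block). Of 7 storage protein probe sets from 13 loci 1 rose, or 4 with the block, and none fell, with a median of 0.70, or 0.40 without replicate 2. With array annotation alone 5 remained, of which 0 passed by limma without the block (2 had an unadjusted p < 0.05) and 2 with it, at a median of 0.42.

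*OLEO2*, an oleosin that coats seed oil bodies, had 6.39, 6.98, 6.27 and 5.19 in the mutant and 3.81, 3.29, 3.66 and 3.58 in WT. It rose by 2.62 ± 0.33 with the ranges apart (FDR = 0.026, 0.000963 with the block). AT2G25890, of the oleosin family, had 4.97, 6.33, 5.28 and 4.48 in *pab2 pab8* and 3.59, 3.40, 3.14 and 3.46 in WT, also apart (1.87, FDR = 0.0865 without and 0.00457 with the block). *OLEO3* overlapped, at 3.51, 4.05, 3.59 and 3.28 in the mutant and 3.60, 3.00, 3.09 and 2.94 in WT (0.45 ± 0.19, FDR = 0.649, 0.151 with the block). Thus 1 of 5 oil body probe sets rose without the block and 2 with it, and the median was 0.45. Array annotation alone left 4, with 0 calls by limma without the block (2 had an unadjusted p < 0.05), 1 with it and a median of 0.22. Without replicate 2 the median of all 5 was 0.25. Summed over the list, the oil body signal was 6.42 to 7.92 in *pab2 pab8* and 5.54 to 5.85 in WT, and the storage protein signal 6.64 to 9.68 and, in WT, 5.71 to 6.27.

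Some genes that mobilise seed reserves after germination rose. AT3G54940, a papain-type cysteine protease, had 5.61, 5.97, 5.35 and 4.79 in *pab2 pab8* and 3.44, 3.26, 3.26 and 3.02 in WT. The groups were clearly apart, with a change of 2.19 ± 0.23 (FDR = 0.0206, 6.73e-05 with the block). *CP1*, a cysteine proteinase, rose by 0.94 ± 0.12, with 5.44, 5.41, 5.56 and 5.17 in the mutant and 4.69, 4.48, 4.37 and 4.29 in WT (FDR = 0.0299, 0.00146 with the block). With the block the calls also took in *BETA-VPE*, a vacuolar processing enzyme of seed storage proteins (1.28, FDR = 0.129 without and 0.00109 with the block), *MLS*, malate synthase of the glyoxylate cycle (1.13, 0.0938 and with the block 0.00945), and *scpl44*, a serine carboxypeptidase-like gene (1.02, 0.163 and with the block 0.00945). *SDP1*, a lipase that breaks down seed oil, changed the other way (-0.58, FDR = 0.321 without and 0.047 with the block). Of 8 probe sets from 19 loci 2 rose, or 5 rose and 1 fell with the block, and the median was 0.98. The 7 with array annotation alone had 2 rises, or 4 rises and 1 fall with the block.

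A few mRNAs outside the seed lists also rose. *MTP11*, a manganese transporter, had 5.24, 5.30, 5.66 and 4.98 in *pab2 pab8* and 3.84, 3.93, 4.03 and 3.40 in WT. The ranges were almost 1 log2 unit apart and each pair differed by a like amount, with a change of 1.49 ± 0.18 (FDR = 0.0216, 6.73e-05 with the block). The actin-related gene *ARP9* had 6.58, 6.15, 6.04 and 6.30 in the mutant and 5.08, 4.49, 5.02 and 4.83 in WT, again apart (1.42 ± 0.16, FDR = 0.0216, 0.000437 with the block). AT5G10120, of the ethylene insensitive 3 family of transcription factors, gave 5.68, 6.26, 5.46 and 4.23 in *pab2 pab8* and 2.80, 2.54, 2.85 and 3.07 in WT. It rose by 2.59 ± 0.37 without overlap (FDR = 0.0386, 0.00266 with the block). *scpl35*, a serine carboxypeptidase-like gene, had 7.61, 7.20, 7.13 and 7.79 in the mutant and 6.18, 6.30, 6.30 and 6.08 in WT, and rose by 1.22 ± 0.16 (FDR = 0.0283, 0.00266 with the block). Of the higher calls 3 had no single gene name, and *scpl35* was named after its values were seen.

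Blocked calls also took in *FLC* and *ESM1*, genes of flowering and of defence chemistry. *FLC*, the repressor of flowering, had 5.97, 6.95, 6.98 and 5.90 in *pab2 pab8* and 4.64, 4.87, 5.30 and 4.60 in WT. The groups did not overlap, the pairs differed by 1.33, 2.08, 1.68 and 1.30, and the change of 1.60 passed with the block (FDR = 0.000465) but not without it (FDR = 0.0865). *ESM1*, which modifies glucosinolate breakdown, gave 11.22, 11.47, 11.48 and 11.72 in the mutant and 9.42, 10.77, 10.63 and 10.21 in WT. The mutant arrays agreed closely while WT replicate 1 was low, and the pairs differed by 1.80, 0.70, 0.85 and 1.5, with a change of 1.21 (FDR = 0.163 without and 0.00542 with the block).

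Salicylic acid is a signal of defence against biotrophic pathogens, and several genes of this response varied widely between replicate numbers. *PCC1*, a pathogen- and clock-controlled gene, had 8.06, 11.78, 12.03 and 8.82 in *pab2 pab8* and 4.61, 10.58, 10.30 and 7.25 in WT. The genotypes overlapped because replicates 2 and 3 were high in both, yet the mutant exceeded the WT array of the same number in all 4 pairs, by 3.45, 1.20, 1.73 and 1.57. Its change of 1.99 had SE 1.42 without the block (FDR = 0.903) and SE 0.29 with it (FDR = 0.00696). *LURP1*, a gene of defence against oomycetes, had 5.32, 8.37, 8.87 and 6.07 in the mutant and 4.26, 6.97, 6.72 and 5.13 in WT, with the same pattern (1.39, FDR = 0.871 without and 0.00329 with the block). *WRKY54*, a transcription factor of the pathway, followed with 1.01 (0.81 without and 0.00936 with the block).

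Of 10 salicylic acid probe sets from 27 loci, 0 passed by limma without the block (1 had an unadjusted p < 0.05) and 7 rose with it, and the median was 0.72. The blocked rises also took in *WRKY70*, *WAK1*, *CRK4* and AT5G10760, at 0.72, 0.73, 0.60 and 0.51. *PR1*, the classic marker of the response, had 4.74, 5.18, 7.03 and 4.53 in *pab2 pab8* and 4.29, 4.41, 4.08 and 4.67 in WT. Only mutant replicate 3 stood clearly higher, and the change of 1.00 did not pass (FDR = 0.707, 0.199 with the block). *SAG101* (0.17) and *GRX480* (-0.06), the 2 members with array annotation, did not pass either, and the other 8 were named through the study's tables, so the list is no independent evidence of a direction. Leaving out replicate number 1, 2, 3 or 4 gave 5, 4, 3 and 6 blocked rises. AT3G22240, outside the list, had the same dependence on replicate number, at 10.70, 13.52, 13.38 and 11.12 in the mutant and 8.68, 12.70, 12.49 and 9.80 in WT (1.26, FDR = 0.946 without and 0.00545 with the block).

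**Figure D2:**
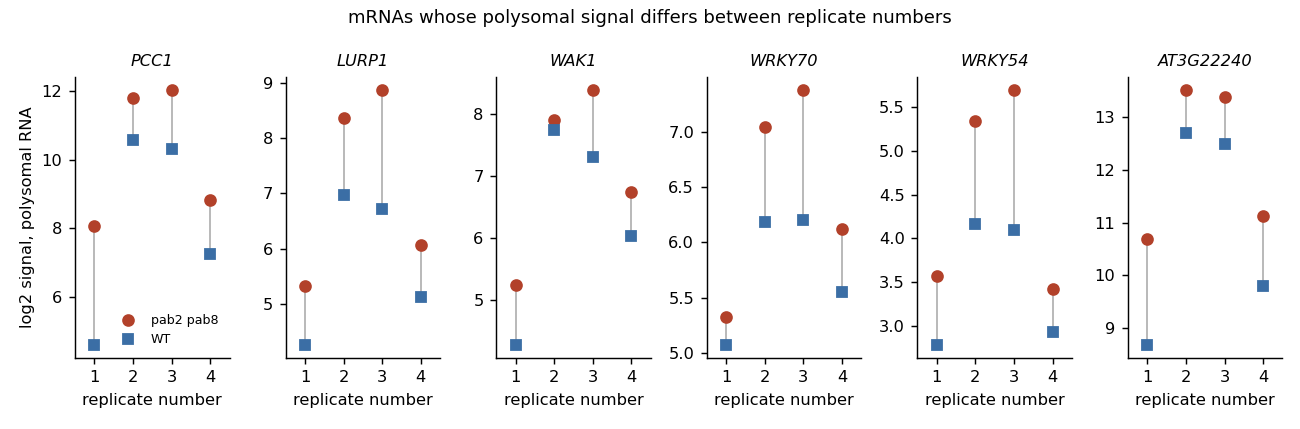
Log2 signal in polysomal RNA (y axis, scale set per panel) by replicate number (x axis) for 6 mRNAs, with *pab2 pab8* as red circles and WT as blue squares, joined within each replicate number. Replicates 2 and 3 of both genotypes lie above replicates 1 and 4, and within each number the mutant lies above WT, by 3.45, 1.20, 1.73 and 1.57 for *PCC1*.

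Among lower mRNAs, AT1G67865, which encodes an unknown protein, had the largest PL change after *PAB2* and *PAB8*. Its signals were 6.96, 7.18, 7.27 and 6.78 in *pab2 pab8* and 9.46, 10.20, 9.70 and 9.47 in WT. The ranges were more than 2 log2 units apart, and the change was -2.66 ± 0.18 (FDR = 0.00105, 4.78e-06 with the block, at most 0.0103 without any one array). AT1G66100, of the thionin family of antimicrobial peptides, had 7.53, 7.92, 7.67 and 6.70 in the mutant and 9.25, 9.84, 9.84 and 10.49 in WT. It fell by 2.40 with no overlap (SE 0.31, FDR = 0.0283, 0.00228 with the block). A second thionin gene, *THI2.2*, had 8.60, 6.36, 5.97 and 6.11 in *pab2 pab8* and 9.41, 7.96, 7.99 and 9.18 in WT. Here replicate 1 was high in both genotypes and the ranges overlapped, while all 4 pairs were lower (-1.88, FDR = 0.384 without and 0.00711 with the block).

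AT1G10310 had 6.87, 7.70, 7.67 and 7.62 in the mutant and 8.52, 9.40, 9.33 and 8.96 in WT. Replicate 1 was the lowest of each genotype, and the change was -1.59 ± 0.24 (FDR = 0.0498, 6.73e-05 with the block). AT3G05730 gave 10.56, 9.89, 9.94 and 10.23 in *pab2 pab8* against 11.56, 11.54, 11.47 and 11.27 in WT. The WT arrays were nearly level and all mutant arrays below them, by -1.30 ± 0.15 (FDR = 0.0216, 0.000963 with the block). AT5G59080 had 5.72, 5.75, 5.45 and 5.65 in the mutant and 7.08, 6.64, 6.71 and 7.26 in WT, apart as well (-1.28 ± 0.15, FDR = 0.0216, 0.000803 with the block). AT5G64180 fell by 1.00 (SE 0.14, FDR = 0.0386, 0.00224 with the block). Of the 15 lower calls 8 had a single gene name.

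Blocked calls added *ASN1*, an asparagine synthetase whose mRNA rises when sugar is short. It had 4.71, 5.56, 5.23 and 4.02 in *pab2 pab8* and 5.96, 7.26, 7.35 and 6.63 in WT. The groups did not overlap and the pair differences ran between -2.61 and -1.25 (-1.92 ± 0.39, FDR = 0.118 without and 0.000899 with the block). AT1G64360, which encodes an unknown protein, had 3.72, 5.76, 5.94 and 4.2 in the mutant and 5.83, 8.43, 8.04 and 6.32 in WT. Replicates 2 and 3 were high in both genotypes, and the pairs differed by nearly equal amounts, -2.12, -2.67, -2.10 and -2.13 (-2.26, FDR = 0.363 without and 2.25e-05 with the block). AT1G23130 had 9.83, 10.69, 10.73 and 10.01 in *pab2 pab8* and 11.21, 12.38, 12.15 and 11.37 in WT, each pair lower (-1.46, FDR = 0.134 without and 8.7e-05 with the block). *MT3*, a metal-binding metallothionein, had 11.76, 12.90, 12.92 and 11.82 in the mutant and 13.19, 13.83, 13.82 and 13.17 in WT. Its groups did not overlap (-1.16 ± 0.31, FDR = 0.266 without and 0.00109 with the block), and the other metallothionein probe set, *MT1C*, averaged only 2.46 in *pab2 pab8* PL and 2.43 in WT PL, against 9.87 in WT total RNA, so its PL change of 0.02 shows little about that mRNA.

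**Figure D3:**
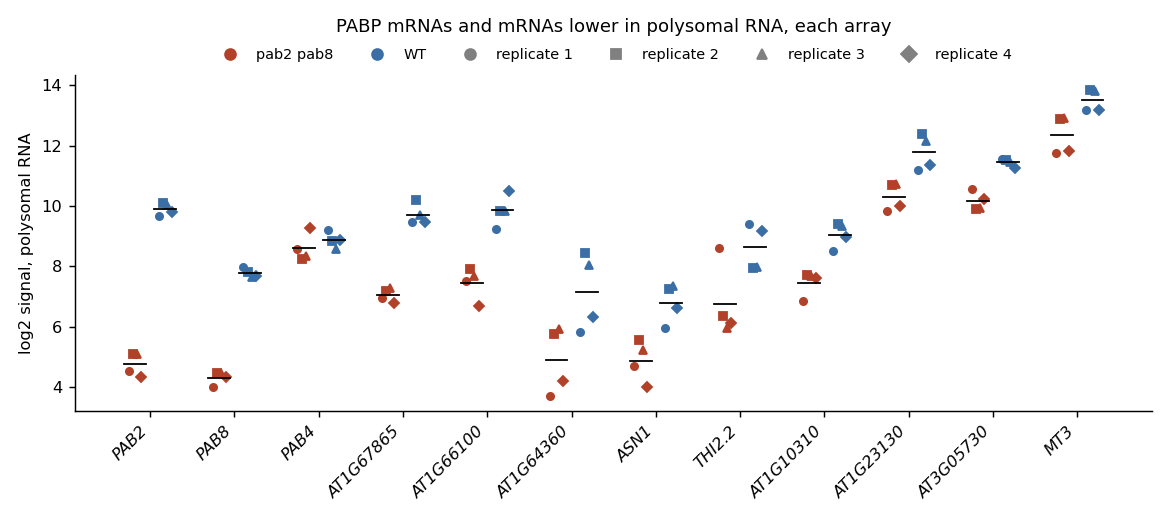
Log2 signal in polysomal RNA (y axis) for the 3 poly(A) binding protein mRNAs and 9 mRNAs with lower signal (x axis), each array of *pab2 pab8* (red, left) and WT (blue, right) shown by the shape of its replicate number, with a bar at the mean of 4. *PAB2*, *PAB8* and AT1G67865 are separated by wide gaps, *PAB4* overlaps between genotypes, and AT1G64360 and *THI2.2* overlap only across replicate numbers.

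The circadian clock mRNAs were measured in plants kept in continuous light. *CCA1* and *LHY* encode MYB factors of the morning loop. *CCA1* had 7.02, 6.73, 6.77 and 6.59 in *pab2 pab8* and 7.77, 7.38, 7.48 and 8.50 in WT, and *LHY* 8.44, 8.81, 8.85 and 8.53 against, in WT, 9.37, 9.35, 9.36 and 10.18. All mutant arrays were below all WT arrays for both genes, WT replicate 4 being highest, and the changes were -1.01 (FDR = 0.173 without and 0.0185 with the block) for *CCA1* and -0.90 (0.158 without and 0.0184 with the block) for *LHY*. *GI* changed by -0.59 (FDR = 0.806 without and 0.0232 with the block) and the pseudo-response regulator *PRR3* by 0.82 (0.324 without and 0.0282 with the block). All 4 measured clock probe sets of 15 loci thus passed with the block and 0 without it by limma (3 had an unadjusted p < 0.05). *CCA1*, *LHY* and *PRR3* were named only through the study's tables of changed genes, so the count is not independent evidence, and array annotation alone left *GI*. Without replicate 1, 2, 3 or 4 the blocked calls were 1, 3, 1 and 2.

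Flavonoid and anthocyanin synthesis genes, which make pigments and sunscreens, had small PL increases. Of 11 probe sets from 23 loci 10 were positive and the median was 0.40, while 0 passed by limma without the block (6 had an unadjusted p < 0.05) and 6 rose with it. *DFR*, dihydroflavonol reductase, had 5.58, 5.70, 5.63 and 5.70 in *pab2 pab8* and 5.18, 5.16, 5.28 and 4.95 in WT. Both groups were tight and did not overlap (0.51 ± 0.10, FDR = 0.0938 without and 0.0205 with the block). *F3H* (0.70), *GSTF12* (0.71), *UF3GT* (0.66), *TT4*, chalcone synthase (0.53), and *UGT78D2* (0.40) also passed with the block. The blocked calls numbered 4, 1, 0 and 3 without replicate 1, 2, 3 or 4. Among the 7 probe sets named by array annotation alone the median was 0.32, with 3 blocked rises, the others having been named through the study's tables.

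Histone mRNAs, which are made in dividing cells, were raised in some cases. Of 13 probe sets from 41 loci 0 passed by limma without the block (5 had an unadjusted p < 0.05), and with it 4 rose and 1 fell, and the median was 0.25. AT3G53650, of the histone superfamily, had 7.17, 5.75, 6.30 and 7.05 in *pab2 pab8* and 6.08, 4.68, 4.54 and 5.13 in WT, overlapping across numbers but higher in every pair (1.46, FDR = 0.274 without and 0.00139 with the block). *HTB2*, a histone H2B, had 8.60, 8.40, 8.40 and 8.77 in the mutant and 8.10, 8.01, 7.75 and 7.96 in WT, without overlap (0.59, FDR = 0.118 without and 0.0116 with the block). *HIS1-3*, a linker histone induced by drought, went the other way, at 4.93, 6.87, 6.54 and 4.99 in *pab2 pab8* against 5.60, 7.39, 7.16 and 5.82 in WT (-0.66, FDR = 0.955 without and 0.00524 with the block). Without replicate 1 or 3 the blocked rises were 2 and 1. The 4 mitotic probe sets had a median of 0.18 and 0 calls by limma with or without the block (0 with an unadjusted p < 0.05), *CYCB1;1* at 0.41 and the kinesin gene *HIK* at 0.26.

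Photosynthesis mRNAs had low negative changes. Of the 9 probe sets of light-harvesting, photosystem and Rubisco small subunit genes 7 were negative and the median was -0.18, with 0 calls by limma without the block (5 had an unadjusted p < 0.05) and 1 rise and 1 fall with it. The antenna gene *LHCB4.2* had 11.72, 11.86, 11.73 and 11.77 in *pab2 pab8* and 12.22, 12.11, 12.15 and 12.35 in WT. It was lower on every array by a small amount (-0.44 ± 0.09, FDR = 0.118 without and 0.029 with the block). Its relative *LHCB4.3* had 7.99, 6.99, 7.73 and 7.81 in the mutant and 7.66, 6.57, 6.56 and 7.10 in WT, overlapping (0.66 ± 0.29, FDR = 0.653 without and 0.027 with the block). Among the 71 plastid-encoded probe sets 57 were negative and 14 positive, against 50.8% positive over the array, with a median of -0.13. The medians within replicates 1 to 4 were -0.35, 0.03, 0.02 and -0.20, and without replicate 1 the list median was -0.04. By limma without the block 0 passed (4 had an unadjusted p < 0.05). With the block *psaC* (-0.75), *psbL* (-0.47) and *atpI* (-0.44), of photosystems I and II and the ATP synthase, fell. The gene *accD*, of acetyl-CoA carboxylase, rose with it (0.67), and without replicate 1 or 3 there were 0 blocked calls in this list.

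Chitinases, which cut fungal cell walls, split in direction. *ChiC* had 5.69, 5.86, 5.68 and 4.99 in *pab2 pab8* and 3.82, 5.18, 5.16 and 3.83 in WT, overlapping only through mutant replicate 4 (1.06 ± 0.36, FDR = 0.443 without and 0.0153 with the block). AT2G43590 had 5.21, 5.63, 5.58 and 5.57 in the mutant and 5.80, 6.95, 6.67 and 6.07 in WT, without overlap (-0.88 ± 0.24, FDR = 0.281 without and 0.00945 with the block). AT2G43620 also fell with the block (-0.92, FDR = 0.718 without and 0.0378 with the block). The 7 probe sets had a median of -0.10 and 0 calls by limma without the block (2 had an unadjusted p < 0.05).

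Translation factor and mRNA decay genes gave no calls. Of 12 probe sets of initiation and release factors 0 passed by limma with or without the block (1 had an unadjusted p < 0.05), and changes ran between -0.17 and 0.29 with a median of 0.14. *EIF4A-2*, an RNA helicase of initiation, had 9.11, 9.05, 9.06 and 9.52 in *pab2 pab8* and 8.92, 8.84, 8.85 and 8.95 in WT, which did not overlap but did not pass (0.29 ± 0.12, FDR = 0.598, 0.139 with the block). Of 8 mRNA decay probe sets 0 passed by limma with or without the block (1 had an unadjusted p < 0.05), and the median was 0.01.

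Ribosomal protein mRNAs were measured by many probe sets. For the 216 cytosolic ones the median change was 0.13, 170 were positive, against 50.8% positive over the array, and 0 passed by limma without the block (4 had an unadjusted p < 0.05). The medians within replicates 1 to 4 were 0.13, -0.12, 0.03 and 0.55, so replicate 4 differed from the rest, and without it the median of the list was 0.00. With the block only *RPL3B* (0.67) and AT3G51190 (0.62) rose, and neither passed once a replicate number was left out. Some cytosolic probe sets were dim in PL though bright in total RNA, so their PL changes show little about those mRNAs. The WT levels of AT3G53890 were 2.37 in PL and 10.83 in total RNA, and those of *STV1* 2.72 and 10.76. The 100 nuclear-encoded proteins of organellar ribosomes had a median of -0.01 with 0 calls by limma without the block (7 had an unadjusted p < 0.05), and with it *HLL* rose (0.61) and *RPS14* (-0.45) and AT5G24490 (-0.49) fell. The 24 mitochondria-encoded probe sets had a median of 0.01 and 0 calls by limma with or without the block (1 had an unadjusted p < 0.05), and the 2 heat shock, 4 root and 2 seed coat probe sets had 0 calls with or without it, at medians of 0.00, -0.44 and -0.04 (0, 1 and 0 with an unadjusted p < 0.05).

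**Figure D4:**
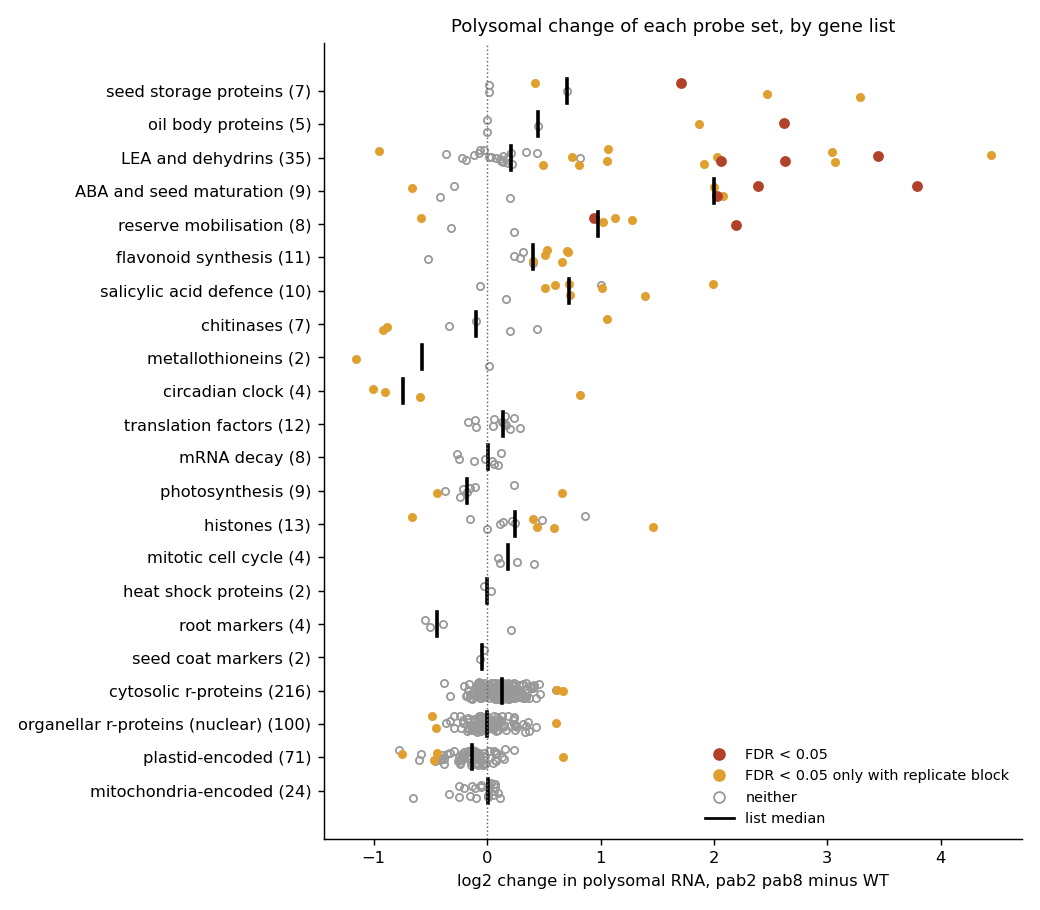
Log2 change in polysomal RNA, *pab2 pab8* minus WT (x axis), of each probe set in 22 gene lists (y axis, number of probe sets in brackets), filled red at FDR < 0.05 without the block, filled orange where only the fit with the replicate block passed, and open otherwise, with a black bar at each list's median. The seed lists reach 4.44 at *ECP63* while their medians run between 0.21 and 2.00, and translation factors and ribosomal proteins cluster near 0.

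A PL change can follow the amount of the mRNA or its distribution, so changes in NP and in total RNA were set beside it. No label ties the total RNA of a replicate number to the plants of the PL and NP arrays of that number. The total RNA arrays, with medians of 6.12 to 6.23, lie on a higher scale than PL, so changes rather than levels are compared. Some probe sets read very differently on the 2 kinds of array. WT PL minus WT total RNA had a median of -0.92, with 1st and 99th percentiles of -5.18 and 3.27, and PL was lower by more than 5 log2 units at 260 probe sets and higher by more than 5 at 82. The antenna gene *LHCA4*, for one, averaged 3.25 in WT PL and 13.66 in WT total RNA. The part of these gaps in the differences between PL and total RNA was not tested. The 16 higher calls had a median change of 2.05 in PL, 1.34 in NP and 1.51 in total RNA. The 15 lower calls had -1.32 in PL, -1.05 in NP and -0.03 in total RNA. For the 72 blocked higher calls the medians were 1.35, 1.07 and 0.87 in the same order, and for the 49 blocked lower calls -1.23, -1.04 and -0.11. The NP change had the sign of the PL change at all 16 higher and 15 lower calls, and at all 72 and 49 blocked ones. The total RNA change had that sign at 13 of the 16 higher and 8 of the 15 lower calls, and at 61 and 28 of the blocked ones. The lower calls were thus lower in PL and NP together while their median in total RNA was near 0, and the reason was not tested. Since these probe sets were chosen on PL, their smaller values in the other RNA pools are a description and were given no test as groups.

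The PL change was tested against the NP change gene by gene, over the 4 differences of each genotype. It was larger than the NP change by the same criterion at 6 probe sets (0.0264%) and smaller at 0 by limma, with or without the block (1966 of all probe sets, 8.64%, had an unadjusted p < 0.05, or 2127, 9.35%, with the block). All 6 had a name. They were *ECP63* (difference 2.78, FDR = 0.00866), *CRU3* (1.94, 0.0075), AT3G53040 (1.72, 0.0075), *M17* (1.66, 0.0399), *CRA1* (1.31, 0.00866) and *PAB4* (1.19, 0.0142). For *CRA1* PL minus NP averaged 1.07 in *pab2 pab8* and -0.24 in WT. In WT *CRA1* averaged 2.49 in PL and 2.73 in NP, and *M17* 2.44 and 2.42. All were in the dimmest 25%, under 3.33 in PL and 3.60 in NP, and *CRA1* reached only 3.13 in mutant NP. The PL and NP changes of these genes may thus be understated by unequal amounts, so the size of their differences is uncertain. For *PAB4* it averaged 0.96 in the mutant and -0.23 in WT, since *PAB4* NP signals were 7.85, 7.13, 7.28 and 8.32 in *pab2 pab8* and 9.50, 8.88, 8.64 and 9.41 in WT, without overlap. Without mutant replicate 3 there were 0 such calls, and without WT replicate 1 or 4 there were 3.

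Against total RNA, with replicates 1 to 3 alone, the PL change was larger at 2 probe sets (0.00879%) and smaller at 1 (0.0044%), and with the block at 50 (0.22%) and 98 (0.431%). These differences and the block match arrays by replicate number, which was not checked for total RNA. In WT replicates 1 to 3 *PCC1*, for one, had 4.61, 10.58 and 10.30 in PL and 4.73, 10.23 and 9.45 in NP. In total RNA it had 9.28, 8.57 and 9.86, so replicate 1 was not the lowest there. Other mRNAs were not examined for this. Both larger calls lay outside the 1st to 99th percentile of the level gap, as did 5 of the 50 and 7 of the 98 blocked calls (10% and 7.14%, against 2% of all probe sets). *MTP11* had total RNA signals of 9.41, 9.49 and 9.65 in *pab2 pab8* and 9.82, 9.72 and 9.78 in WT, slightly lower in the mutant, while its PL signal rose, and the difference of the changes was 1.72 ± 0.15 (FDR = 0.0351, 0.00242 with the block). AT1G66100 had 9.91, 9.84 and 9.69 in the mutant and 9.50, 9.79 and 9.74 in WT, overlapping in total RNA although its PL signal fell (-2.08 ± 0.19, FDR = 0.0351, 0.000646 with the block). With limma there were 0 such calls in either direction when mutant replicate 2 or 3 or any WT replicate was left out, and without mutant replicate 1 there were 6 larger and 4 smaller. For *MTP11* the WT level was 3.80 in PL and 9.77 in total RNA, and for AT1G66100 it was 9.85 and, in total RNA, 9.68. In NP the change was 0.31 for *MTP11* (FDR = 0.805) and -2.87 for AT1G66100 (FDR = 0.000537), so AT1G66100 was lower in NP as well as PL. The third call had no gene name and WT levels of 4.07 in PL and 13.63 in total RNA.

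With the block, total RNA separated further named mRNAs. *ECP63* had a total RNA change of 0.68 against 4.44 in PL (difference over replicates 1 to 3 of 4.15, FDR = 0.0909 without and 1.24e-05 with the block), and *LEA7* 1.98 against 3.45 (1.60, 0.381 without and 0.0098 with the block). The *ECP63* signals in total RNA, 3.46, 3.64 and 3.68 in *pab2 pab8* and 3.02, 2.73 and 2.99 in WT, were in the dimmest 25% there (under 4.09 in WT), so its small total RNA change may be understated. In the mutant *ECP63* averaged 8.38 in PL and 5.57 in NP but 3.59 in total RNA. The part of this gap between kinds of array in its difference was not tested. *CRA1* went the other way, with 3.45 in total RNA and 1.71 in PL (-1.56, FDR = 0.466 without and 0.0338 with the block), but its WT PL level of 2.49 was in the dimmest 25%, so the PL change may be the understated one. *PER1* had 3.46 in total RNA and 3.79 in PL, a difference that did not pass (0.73 ± 0.33, FDR = 0.773, 0.137 with the block). For AT1G10310 total RNA was 7.72, 7.83 and 7.71 in *pab2 pab8* and 8.01, 7.77 and 8.11 in WT, a change of -0.21 against -1.59 in PL (-1.46, FDR = 0.381 without and 0.00505 with the block). Its NP change was -1.05 (FDR = 0.237), of the same sign as in PL.

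The seed and clock lists held members that differed in sign between PL and total RNA. *TIP3;1* had a total RNA change of 1.70 and a PL change of -0.66 (difference -2.24, FDR = 0.0762 without and 0.0039 with the block), at WT levels of 12.82 in PL and 6.02 in total RNA, a gap beyond the 99th percentile. *BGLU19*, a glucosidase gene of the seed lists, had 2.39 in total RNA and -0.29 in PL (-2.68, 0.0762 without and 0.00242 with the block). *CCA1* had total RNA signals of 8.96, 8.86 and 9.08 in *pab2 pab8* and 8.06, 7.37 and 8.43 in WT, higher in the mutant on every array, a change of 1.02 against -1.01 in PL (-1.72, FDR = 0.138 without and 0.00407 with the block). *LHY* had 10.63, 10.54 and 10.86 in the mutant and 9.82, 9.54 and 10.11 in WT, a change of 0.85 against -0.90 in PL (-1.51, FDR = 0.102 without and 0.00407 with the block). In NP the changes were -0.80 for *CCA1* (FDR = 0.469) and -0.62 for *LHY* (FDR = 0.62), of the same sign as in PL. Flavonoid genes had a median total RNA change of 1.40 beside 0.40 in PL, and plastid-encoded probe sets 0.68 beside -0.13. The plastid value leaned on replicate 1 in the genes looked at. Total RNA signals of *psbA*, *atpI* and *petA* were highest in mutant replicate 1 (13.78, 8.36 and 12.78) and lowest in WT replicate 1 (11.15, 6.45 and 10.40). Their total RNA changes did not pass (FDR = 0.52, 0.67 and 0.3).

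**Figure D5:**
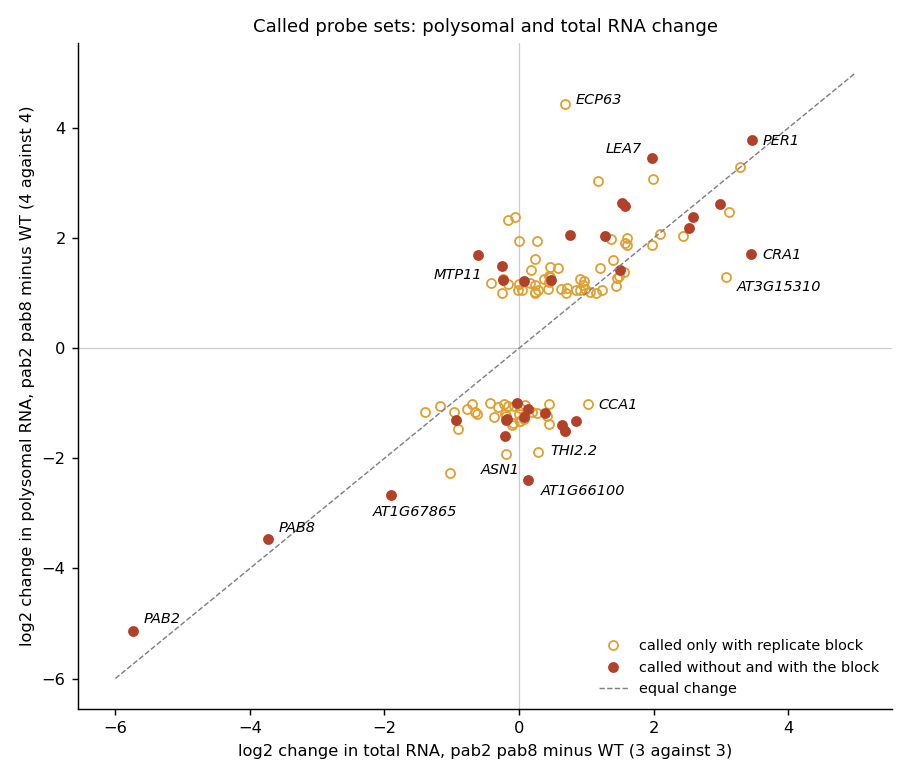
Log2 change in polysomal RNA (y axis, 4 arrays of each genotype) against log2 change in total RNA (x axis, 3 of each), both *pab2 pab8* minus WT, for the 72 higher and 49 lower probe sets called in PL with the block, filled where also called without the block, with a dashed line of equal change. Most lower calls sit near 0 on the total RNA axis, *CCA1* lies at 1.02 in total RNA and -1.01 in PL, and *PAB2*, *PAB8* and *PER1* lie near the line.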

How the data were processed

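Total and fractionated RNA was hybridised to ATH1 arrays, and the log2 values were deposited by the authors after normalization with RMA in the affy package (the submitters' processing notes name MAS5 too, and no version of either was given in the sources used here). RMA gives each array a like distribution, so an overall shift of mRNA into or out of polysomes would not show. No counts exist for arrays, and the number of arrays limits the precision. A further deposited table of translation state repeats the PL and NP values and was not used. The files carry no control probe sets.

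For each probe set the genotype change was estimated by a linear model with moderated variances (limma 3.58.1, run in R 4.3.3), and p-values were adjusted after Benjamini and Hochberg (FDR) over all 22746 probe sets. A probe set was called at FDR < 0.05 and a change of at least 1 on the log2 scale. PL minus NP (4 against 4) and PL minus total RNA (3 against 3) were fitted as differences within genotype and replicate number. Whether total RNA and PL of a number came from the same plants was not given and not checked. Python 3.11.15 (pandas 2.3.3, numpy 2.4.6, matplotlib 3.10.9) served for tables and plots, and the fit was tested on simulated data. Replicate numbers were taken to pair the genotypes, because per the labels the mutant was grown alongside WT and the replicates at different times, though no label ties a number to a planting. Deviations from the genotype means correlated between same-numbered arrays at 0.797, 0.603, 0.625 and 0.428 for replicates 1 to 4, while mutant 2 with WT 3 gave 0.624 and mutant 3 with WT 2 gave 0.596, so the arrays do not tell replicates 2 and 3 apart. The fit without the block was kept as the main one, and the block was an alternative. Nothing in the sources says how many plants entered a sample.

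Of the probe sets, 13513 had 1 gene through the platform annotation, 500 were named through the study's own tables, 548 had several genes and 8185 no name here. The named genes were *PAB2*, *PAB4* and *PAB8*, the 12 largest called changes per direction that had a name and the same sign in all 4 pairs, in each list the 3 with the lowest p, and the 6 called mRNAs per direction whose PL and total RNA changes differed most. Others were named after their values were seen. The members, lists and rule were chosen with earlier results of these data known. Alternatives were the block, a trended prior, the brighter probe sets, median centring, quantile normalization, array weights, all 16 PL and NP arrays, other criteria and leaving out each array. The block without each replicate number and the block with centring were added after the data were seen. Promoter motifs were not analysed here.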

Additional observations from a re-analysis of the deposited data

Results flagged for a closer look

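Among the genes taken by the naming rule, 4 had a PL change that differed from the NP change by limma, and *ECP63* (2.78) and *M17* (1.66), outside the rule, did too. The differences of the 4 were 1.94 for *CRU3* (FDR = 0.0075), 1.72 for AT3G53040 (FDR = 0.0075), 1.31 for *CRA1* (FDR = 0.00866) and 1.19 for *PAB4* (FDR = 0.0142), each higher in PL. *CRA1* and *M17* were among the dimmest 25% of probe sets in WT PL and WT NP. Against total RNA, *MTP11* differed by 1.72 (FDR = 0.0351) and AT1G66100 by -2.08 (FDR = 0.0351).

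Single PL arrays stood apart from the other 3 of their genotype in 8 of 150 groups, where chance gives about 1 in 20, or 7.5. Mutant replicate 1 was at 6.87 for AT1G10310 (the others 7.62 to 7.70), at 5.21 for AT2G43590 (5.57 to 5.63) and at 7.84 for *AUR1*, a mitotic kinase (6.61 to 6.81). WT replicate 1 was also high for *AUR1*, at 7.61 (6.66 to 6.68). Mutant replicate 4 was at 9.52 for *EIF4A-2* (9.05 to 9.11) and at 8.83 for the plastid gene *petA* (9.38 to 9.44). WT replicate 4 was at 10.18 for *LHY* (9.35 to 9.37) and at 2.67 for *MT1C* (2.34 to 2.37).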

How the results depend on the processing

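Called PL changes numbered 16 higher and 15 lower. The replicate block gave 72 and 49, and with each array also centred on its median 68 and 54. With the block and without replicate 1, 2, 3 or 4, the higher calls were 70, 69, 54 and 78 and the lower 62, 65, 55 and 43. Array weights gave 55 and 36, all 16 PL and NP arrays 39 and 31, and FDR alone 24 and 23. Leaving out 1 array gave 1 to 35 higher and 3 to 14 lower calls. For PL minus NP (6 and 0) the trended prior gave 11 higher calls and the brighter probe sets 2, median centring gave 2 lower, and quantile normalization, FDR alone and 1.5-fold 1 lower each, while leaving out 1 replicate gave 0 to 7 and 0 to 1. For PL minus total RNA (2 and 1) the block gave 50 and 98, median centring 4 and 2, and leaving out 1 replicate 0 to 6 and 0 to 4. The causes were not tested.

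Of 75 named genes the block moved 24 past the threshold and lost none, and leaving out an array lost between 2 and 17. Signs turned only for changes near 0. With array weights *ATHSP22.0* was -0.02, AT1G53540 0.02 and AT3G50990 0.05. With the block and a replicate left out *MT1C* was -0.05 without replicate 1 and -0.02 without replicate 2, *ATHSP22.0* -0.04 without 1 and -0.01 without 3, AT1G53540 0.01 without 4, *BAN* 0.03 without 3 and AT3G50990 0.02 without 1. Without 1 array in turn, *MT1C* ran between -0.03 and 0.10, *AUR1* between -0.17 and 0.34, *ATHSP22.0* between -0.04 and 0.10, AT1G53540 between -0.10 and 0.06 and AT3G50990 between -0.08 and 0.00.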
